A study of Mus musculus with 2 samples.

Results

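The Myc and Max network was represented by 9 genes, Myc, Mycn, Max, Mxd1, Mxd3, Mxd4, Mxi1, Mnt and Mga, among 28233 genes with a symbol on the array. They were chosen by gene name, and every probe that carried such a name was used, which gave 11 probes of 60 bases among 39425 probes other than controls. Mxd1 and Mxd4 had 2 probes each, the other 7 genes had 1, and each probe was printed as 1 spot. All 11 probe accessions led to the same symbols in RefSeq.

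The cells were immortalized mouse embryonic fibroblasts (MEF) of mixed C57BL/6 x B6:129 Ola background, with the genotype Rosa26ERT2 Cre: THOC5 (flox/flox). The control cells were this line without tamoxifen. The labels call them wildtype, although they carry the floxed alleles and the Cre, and call the tamoxifen-treated cells a THOC5 knockdown. The THOC5-depleted cells were the same line after 2 days of tamoxifen, which switches on the Cre recombinase made from the Rosa26 locus, so that the floxed THOC5 gene is cut out. All cells, control cells included, therefore carry the Cre and the floxed alleles, and tamoxifen was given to the THOC5-depleted cells only. On each of 2 dual-color arrays, Cy3 carried RNA of unstimulated cells and Cy5 carried RNA of cells stimulated for 1 h with fetal calf serum (FCS). THOC5 is a subunit of the THO complex, which couples transcription to mRNA processing and export.

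There was 1 array per condition, so none of the values has a replicate check and no p-value was computed. Loss of THOC5, tamoxifen, the culture and the position on the slide cannot be told apart. Values are processed signals (spot brightness after background subtraction and dye normalization, in arbitrary units). A serum ratio is the Cy5 over the Cy3 signal of 1 array, on the log2 scale, and the error after it is the scanner software's own error for that spot, which covers technical noise only. In bulk RNA, fewer cells with a transcript and less of it per cell cannot be told apart.

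Between 62.1% and 64.4% of the 43020 spots were well above background in each channel, and 0 were saturated. The labels were checked on Thoc5. Its signal was 4808 in unstimulated and 3047 in stimulated control cells, against 546 and 455 in THOC5-depleted cells, or 7.08-fold and 5.38-fold lower after scaling between the arrays. All 10 fibroblast markers, such as Col1a1 and Vim, were well above background in all 4 channels. Of the other cell types' markers, 2 of 5 epithelial, 3 of 4 endothelial and 1 of 5 blood markers were.

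Myc and its relative Mycn are transcription factors of the basic helix-loop-helix leucine zipper class. They bind the E-box as a heterodimer with Max and recruit coactivators, and Myc is a classical serum-response gene of fibroblasts. The Mxd proteins (Mxd1, Mxi1, Mxd3 and Mxd4), Mnt and Mga pair with the same Max. The Mxd proteins and Mnt repress through Sin3 corepressors, and Mga is part of a Polycomb complex.

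The probes decide which part of a transcript was read, and stretches of those of Myc, Mycn and Mnt, the genes with the largest changes below, are shown first. Each is bases 1 to 30 of the 60, 5′ to 3′, as the array files give it. The Myc probe lies at chr15:61821417-61821476 on the plus strand, the Mycn probe at chr12:12943193-12943252 on the minus strand and the Mnt probe at chr11:74658915-74658974 on the plus strand, all on mm9. The longest run of bases that the Myc and Mycn probes share is 5.
Myc: aacagttgaaacacaaactcgaacagcttc
Mycn: tgtactaattcctacacggcctgtatactt
Mnt: aaagaggtggcccttgtttacagtgaggac

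The 2 Mxd4 probes, at chr5:34519323-34519382 and chr5:34519276-34519335 (mm9, minus strand), are shown because they overlap and are therefore not independent readings. Capitals mark the 13 bases that they share, at the end of the brighter probe (bases 31 to 60 shown) and at the start of the second (bases 1 to 30 shown).
Mxd4, brighter probe: atcattccagaagtattAAATATCATTTCT
Mxd4, second probe: AAATATCATTTCTacaaatctcggcaggat

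After 1 h of serum, Myc was higher and Mycn lower on both arrays, and none of the other 6 measured genes passed 1.5-fold on either array, although Mxd1 did on the THOC5-depleted array after normexp and loess (log2 0.59) or with both arrays scaled to 1 spread (0.74). Of the 8 genes measured on the control array, 1 was at least 1.5-fold higher and 1 at least 1.5-fold lower. Over all genes measured the same way, 6.25% were higher and 5.42% lower. The THOC5-depleted array gave the same counts of 1 and 1, against 3.03% and 1.25% of all genes. The median log2 serum ratio of the 8 genes was -0.03 and 0.02 on the 2 arrays, beside medians of -0.02 and -0.01 over all genes.

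**Figure D1:**
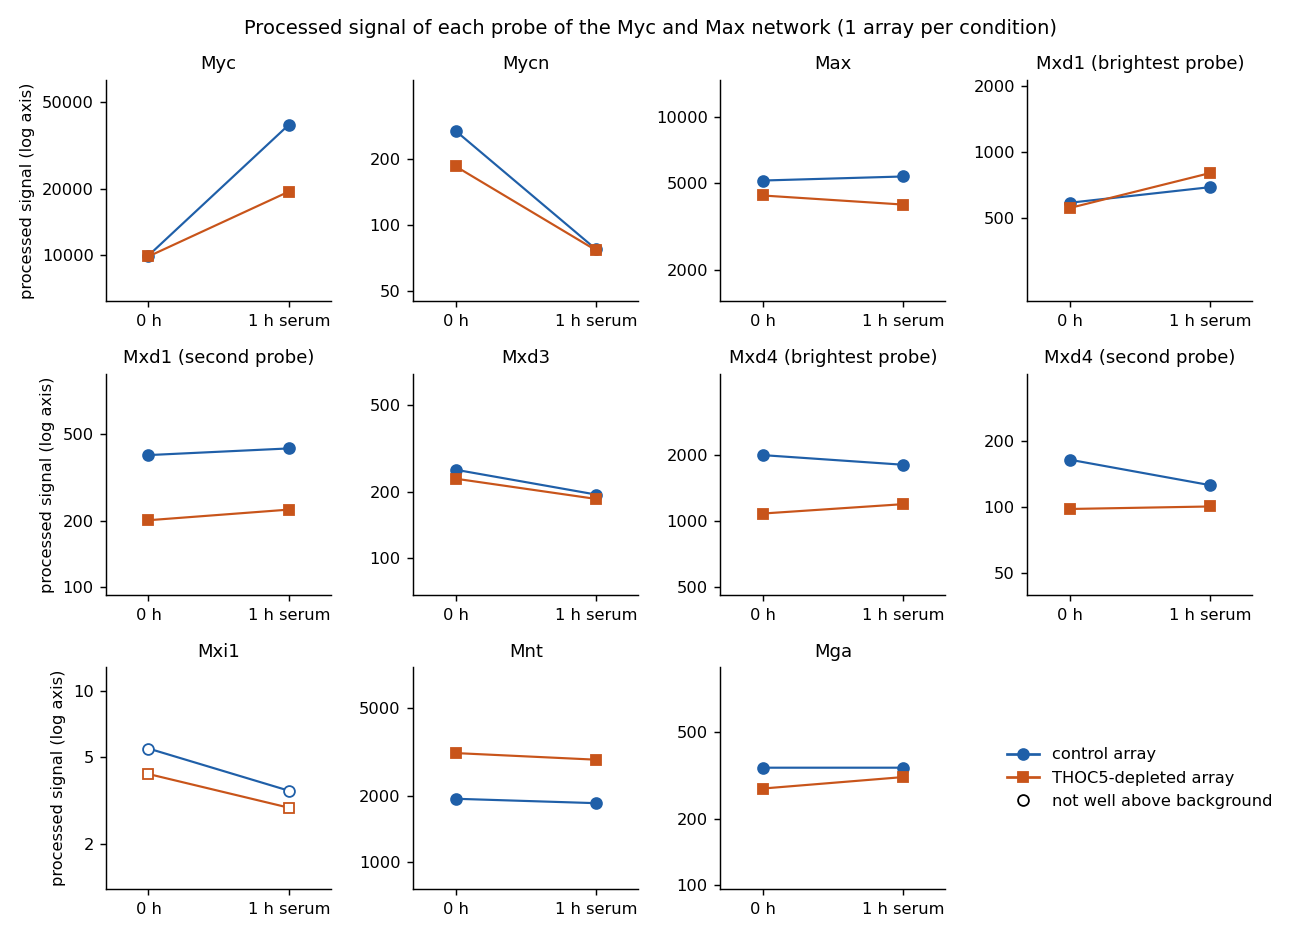
Processed signal (log axis, equal span in every panel) of each of the 11 probes before and after 1 h of serum, in control cells (blue circles) and THOC5-depleted cells (orange squares), 1 spot per point, with open symbols for signals not well above background. Myc starts at 9968 and 9873 and ends at 39391 and 19513, Mycn falls on both arrays, and the Mnt lines lie apart at both times.

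Myc gave a signal of 9968 in unstimulated control cells and 39391 after serum. In THOC5-depleted cells it gave 9873 and 19513. The starting signals were thus alike before scaling, and the stimulated signals were not. The log2 serum ratio was 1.98 ± 0.27 in control cells, a 3.95-fold increase, and 0.98 ± 0.22 in THOC5-depleted cells, a 1.98-fold increase. Myc ranked 123 from the top of 17746 genes in control cells and 164 of 17816 in THOC5-depleted cells.

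The increase of Myc was 2.00-fold smaller in THOC5-depleted cells, with a software error of 0.35 on the log2 scale, and the log2 difference was 2.83 times that error. Myc was the only 1 of the 8 genes to pass 1.5-fold in this difference. Over all genes, 4.06% had a ratio at least 1.5-fold higher and 3.77% at least 1.5-fold lower in THOC5-depleted cells, and Myc lay at place 201 from the bottom of 17199. Of 183 genes that were at least 3-fold higher with serum on the control array, Myc included, 175 had a smaller ratio on the THOC5-depleted array, and their median difference was -1.24. These genes were chosen on the control array, which by itself favors a smaller value on the other. Of 58 genes that reached 3-fold on the THOC5-depleted array, a choice that favors the opposite, 46 had the smaller ratio there (median difference -0.93). Of 93 genes chosen on the mean of both arrays, 84 did (median -1.11). The last 2 choices were made after seeing the data. Serum ratios were also more narrowly spread on that array, with the middle 50% of genes between -0.15 and 0.13 against -0.21 and 0.18 in control cells. Once the 2 arrays were scaled to 1 spread of log ratios, the difference for Myc was -0.61. The counts of genes with a smaller ratio were not repeated at that scaling, and their cause was not tested.

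**Figure D2:**
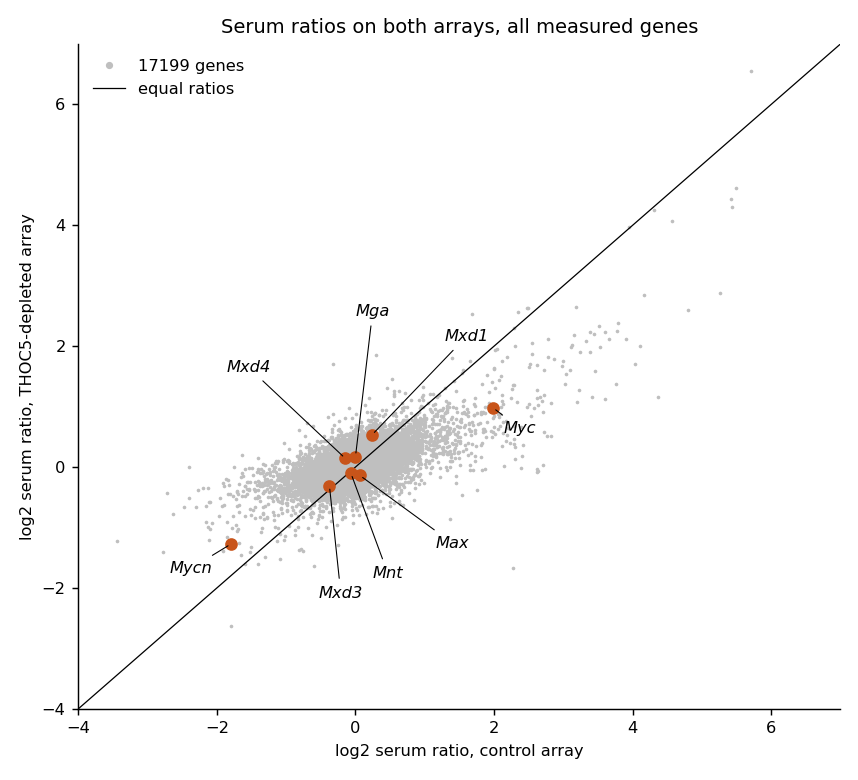
Log2 serum ratio in control cells (horizontal axis) and THOC5-depleted cells (vertical axis) of 17199 genes well above background in all channels (grey), with the 8 measured genes of the network in orange and a line at equal ratios. Myc lies at 1.98 and 0.98, to the right of the line, and Mycn at -1.80 and -1.27 at the lower left edge of the cloud.

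Mycn, best known from neural tissue and neuroblastoma, was a dim probe. Its signal was 268 in unstimulated and 77.2 in stimulated control cells, and 185 and 76.4 in THOC5-depleted cells, all well above background. The stimulated signals were close to each other, and the unstimulated signals differed more. The log2 serum ratio was -1.80 ± 0.27 in control cells, 3.47-fold lower with serum, and -1.27 ± 0.24 in THOC5-depleted cells, 2.42-fold lower. It ranked 35 from the bottom of 17746 genes and 25 from the bottom of 17816.

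The 2 Mycn ratios differed by 0.52 ± 0.36, which did not pass 1.5-fold. Falls of this size on both arrays were rare. Mycn was among 26 of 17199 genes (0.151%) that were at least 2-fold lower with serum on each array, and 17 of these 26 had the smaller change in THOC5-depleted cells, with a median difference of 0.24. After normexp background correction and loess, the values for Mycn were -1.33 and -0.87.

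The 250 bases before the start of Mycn are shown because this gene fell most among the 9 and because they hold a string of letters that few promoters have in exactly that form. They lie at chr12:12941837-12942086 on the minus strand (GRCm38.p6, RefSeq), and capitals mark TTTGGCGC, a form of the E2F site, which was searched on both strands and begins 183 and 168 bases before the start. Counted over windows of 300 bases (250 before and 50 after a start), 0.514% of 32851 promoters hold it, and of the 8 members with a promoter entry, Mycn alone did. Other forms of the E2F site were not counted, so the share of promoters with any E2F site is not known here. These are matches of letters, and binding was not measured.
Mycn: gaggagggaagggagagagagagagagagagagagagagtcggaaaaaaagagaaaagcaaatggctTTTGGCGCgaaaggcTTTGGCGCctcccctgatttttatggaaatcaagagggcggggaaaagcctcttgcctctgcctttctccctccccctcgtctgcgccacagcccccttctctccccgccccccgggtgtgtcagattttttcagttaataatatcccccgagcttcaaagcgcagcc

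Max, the shared partner, gave 5119 and 5341 in control cells and 4375 and 3978 in THOC5-depleted cells (probe at chr12:78038272-78038331, mm9, minus strand). The control array gave a log2 serum ratio of 0.06 ± 0.20 and the THOC5-depleted array -0.14 ± 0.20. Their difference of -0.20 ± 0.29 was smaller than its error, so at this precision a change of Max with serum or with THOC5 was not detectable.

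**Figure D3:**
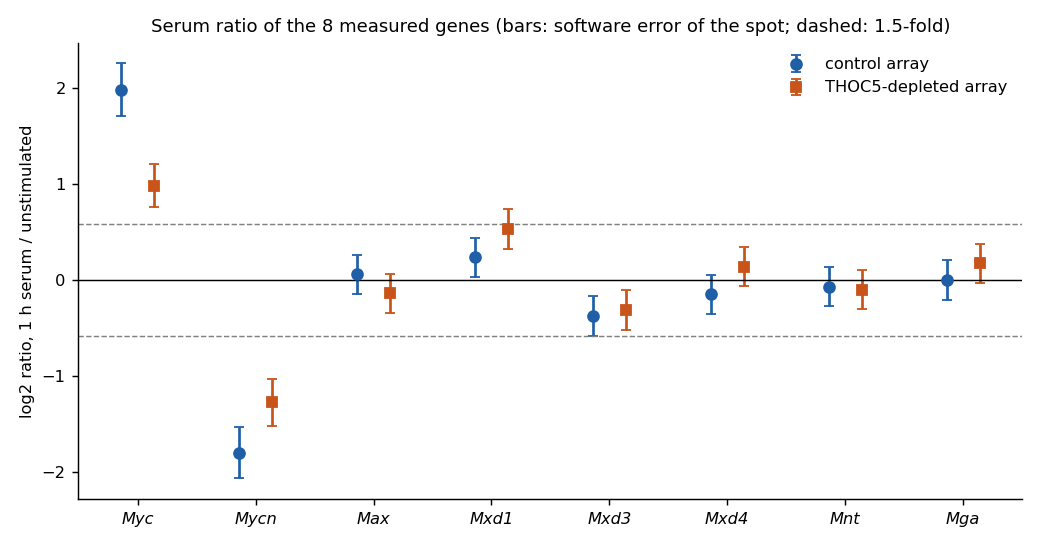
Log2 serum ratio of the 8 measured genes in control cells (blue circles) and THOC5-depleted cells (orange squares), with bars for the software's error of the spot (technical, 1 array each) and dashed lines at 1.5-fold. Myc (1.98 and 0.98) and Mycn (-1.80 and -1.27) lie outside the dashed lines on both arrays and the other 6 genes lie inside.

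Among the Mxd repressors, Mxd1 and Mxd3 showed small serum ratios of opposite sign. The brighter Mxd1 probe (chr6:86599053-86599112, mm9, minus strand) gave 586 and 690 in control cells and 554 and 800.4 in THOC5-depleted cells. Its log2 serum ratio was 0.24 ± 0.21 and 0.53 ± 0.21, the latter just below 1.5-fold, and the difference of 0.29 was as large as its error of 0.29. Mxd3, which is known from cycling cells, gave 253 and 195 in control cells and 230.2 and 186 in THOC5-depleted cells (chr13:55427000-55427059, mm9, minus strand). Its ratios were -0.38 ± 0.21 and -0.31 ± 0.21, so that it was lower with serum on both arrays by less than 1.5-fold.

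The second Mxd1 probe lies 1863 bases further along the gene in the direction of transcription (chr6:86597190-86597249). It gave 399.6 and 429 in control cells and 202 and 225 in THOC5-depleted cells. Its serum ratios of 0.10 ± 0.20 and 0.16 ± 0.21 were near 0, and its signals were lower in THOC5-depleted cells at both times, unlike those of the brighter probe. After scaling between the arrays, the second probe was lower by 1.69-fold without serum and by 1.62-fold with it, while the brighter probe was 1.15-fold and 1.41-fold higher. The probes were 0.95 and 1.19 apart on the log2 scale. For 3274 and 3220 genes with 2 probes, the median distance was 0.17 and 0.16 and the 95th percentile 0.98 and 0.85, so a direction for Mxd1 between the arrays cannot be given.

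Mxd4 gave 2005 and 1812 in control cells and 1086 and 1198 in THOC5-depleted cells on the brighter of the 2 probes printed above. The serum ratios were -0.15 ± 0.20 and 0.14 ± 0.20. Unstimulated Mxd4 was 1.49-fold lower in THOC5-depleted cells (log2 -0.58), just inside the threshold, and 1.22-fold lower with serum. The second, overlapping probe gave 165 and 126 in control cells and 98.3 and 101 in THOC5-depleted cells, and was 1.48-fold and 1.10-fold lower. Both probes thus read lower in THOC5-depleted cells by nearly the same amount without serum.

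Mxi1 was not well above background in any of the 4 channels. Its probe at chr19:53450238-53450297 (mm9, plus strand) gave 5.44 and 3.49 in control cells and 4.16 and 2.92 in THOC5-depleted cells, so no fold is given. Another probe, which the array names by a transcript and describes as a fragment of Mxi1, was not a member by the rule and was picked after its values were seen. It gave 18.7 and 23.9 in control cells and 22.5 and 26.8 in THOC5-depleted cells, and lies on the minus strand.

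Mnt, a widely expressed repressive partner of Max, was the gene of the network that differed most between unstimulated cells. Its signal was 1934 and 1847 in control cells and 3125 and 2915 in THOC5-depleted cells. Serum made little difference on either array, with ratios of -0.07 ± 0.20 and -0.10 ± 0.20, and both signals of the THOC5-depleted array lay above both of the control array. After scaling between the arrays, Mnt was 2.01-fold higher without serum (log2 1.01) and 1.97-fold higher with it (log2 0.98). It ranked 241 of 17716 genes and 327 of 17439 from the top. Without any scaling the difference was 0.69 and 0.66. These values rest on 1 probe. Where genes had 2 probes, the 95th percentile of the distance between them was 0.98 without and 0.85 with serum.

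The 250 bases before the start of Mnt hold an E-box, the site that Myc, Mxd and Mnt dimers with Max bind. They lie at chr11:74830674-74830923 on the plus strand (GRCm38.p6, RefSeq), and capitals mark CACGTG, 123 bases before the start. In windows of 300 bases, CACGTG was found in 7.15% of 32851 promoters and in 3 of 10 windows of the 8 members with an entry, those of Mnt, Mxd4 (219 bases before the start) and Max (across the start). CACGTG reads the same on both strands. A match does not show binding.
Mnt: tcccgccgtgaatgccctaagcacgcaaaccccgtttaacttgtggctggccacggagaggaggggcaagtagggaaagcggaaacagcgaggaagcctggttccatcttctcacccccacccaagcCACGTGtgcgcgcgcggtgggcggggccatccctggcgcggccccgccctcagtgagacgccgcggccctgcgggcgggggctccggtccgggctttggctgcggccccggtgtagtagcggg

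Mga gave 343 and 343 in control cells and 276 and 311 in THOC5-depleted cells (chr2:119792479-119792538, mm9, plus strand). Its serum ratio was 0.00 ± 0.20 and 0.17 ± 0.21, and the difference of 0.17 ± 0.29 was smaller than its error.

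Between the arrays, Mnt was the only 1 of the 8 genes past 1.5-fold in unstimulated cells, where 4.98% of all genes were higher and 5.07% lower in THOC5-depleted cells. In stimulated cells Mnt was higher and Myc lower, against 6.08% and 5.44% of all genes. Stimulated Myc was 1.63-fold lower in THOC5-depleted cells (log2 -0.71), while unstimulated Myc was 1.22-fold higher (log2 0.29). Mycn was 1.27-fold lower without serum and 1.13-fold higher with it. Max, Mxd3 and Mga differed by 0.16 or less on the log2 scale at both times. Markers of fibroblasts moved too, 2 of 10 past 1.5-fold without serum. Col3a1 fell from 45649 to 17481 and Pdgfra from 1266 to 435 in unscaled signals, and the part of this in the values of Mnt was not tested.

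**Figure D4:**
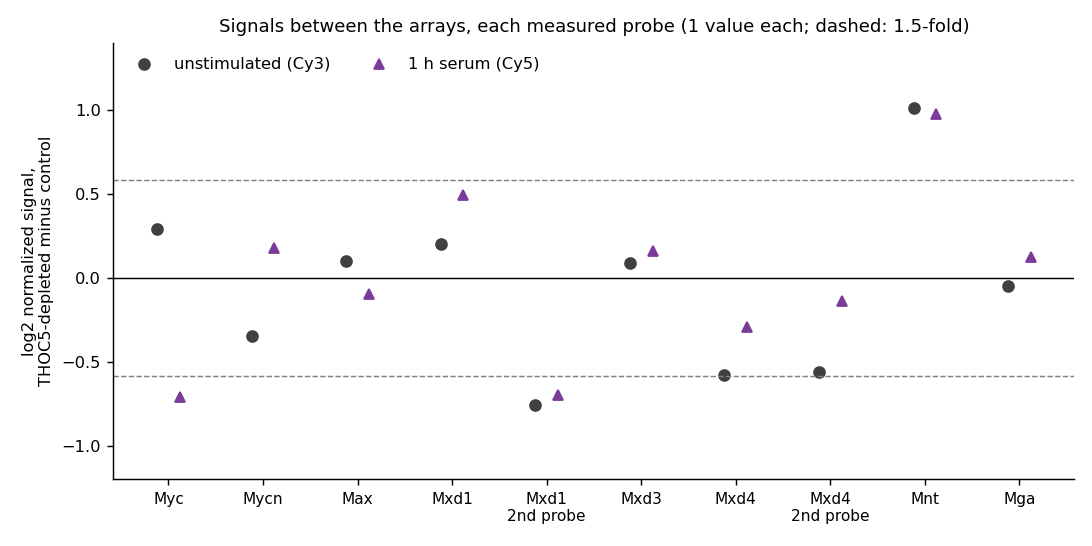
Log2 normalized signal in THOC5-depleted minus control cells for each of the 10 probes measured in all channels, in unstimulated cells (grey circles) and after 1 h of serum (purple triangles), 1 value each, with dashed lines at 1.5-fold. Mnt is near 1 at both times, Myc lies below the lower line with serum only, and the 2 Mxd1 probes lie on opposite sides of 0.

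The 5 genes most like Myc, by the distance between their pairs of serum ratios over 2 arrays among 11221 bright genes, were C030046G05, Kdm6b, 1300014I06Rik (Pxdc1 in RefSeq), Vegfa and Plaur. The distances were 0.041, 0.117, 0.120, 0.129 and 0.137. Kdm6b, a histone demethylase, had ratios of 2.10 and 0.99. Vegfa, a growth factor for blood vessels, had 2.06 and 0.88, and Plaur, the urokinase receptor, had 1.87 and 0.90. The likeness rests on 2 values per gene.

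Of 5 genes of the Myc family or that bind Myc, Bmyc was the only 1 past 1.5-fold, higher with serum on both arrays (6.25% and 3.03% of all genes were) and lower in the difference (3.77% were). Bmyc resembles the amino-terminal part of Myc. Its signal was 977 and 3205 in control cells and 893 and 1622 in THOC5-depleted cells, so it was high after serum on both arrays and lower on the second. The serum ratios were 1.71 ± 0.26 and 0.86, and the difference was -0.85 ± 0.34. The Bmyc and Myc probes share at most 6 bases in a row. Mycl had the lowest control ratio of the 5, -0.05 ± 0.21, against 0.11 on the other array.

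Mlx is a Max-like protein with its own partners, Mlxip (MondoA) and Mlxipl (ChREBP), and the genes Txnip and Arrdc4 are known targets of these dimers. Of the 5 genes, 1 was higher and 1 lower past 1.5-fold in control cells, against 6.25% and 5.42% of all genes. Txnip, an inhibitor of glucose uptake, gave 1058 and 303 in control cells and 839.9 and 618 in THOC5-depleted cells. It was 3.49-fold lower with serum in control cells (log2 -1.80 ± 0.26) and 1.36-fold lower in THOC5-depleted cells (log2 -0.44). The difference of 1.36 ± 0.34 was the largest among the 5. In stimulated cells Txnip was 2.47-fold higher in THOC5-depleted cells, and Arrdc4 was also higher after scaling (log2 0.71), against 6.08% of all genes. Arrdc4 was dim, at 34.5 and 50.9 in stimulated cells before scaling. Mlxipl had the highest ratio in control cells, 0.82 ± 0.22, which was 0.77 on the other array.

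For the proteins that work with the network, counts past 1.5-fold are read against all genes, of which 6.25% were higher and 5.42% lower with serum in control cells and 3.03% and 1.25% in THOC5-depleted cells. At these shares about 1 gene or none of 10 would pass, so the counts do not set the lists apart. Of 10 Myc coactivators, 0 passed 1.5-fold with serum on either array, with Wdr5 the highest in control cells at 0.24 ± 0.21, Kat2a the lowest at -0.39 ± 0.21, and Actl6a the gene with the largest difference at -0.23 ± 0.29. Of 10 genes of the Sin3 and NCoR corepressors, 0 passed with serum or between the arrays. Rbbp4 was highest at 0.03 ± 0.20, Sin3a lowest at -0.42 ± 0.21, and Sap30 had the largest difference, 0.33 ± 0.29. Of 7 partners of Mga, L3mbtl2 was lower with serum in THOC5-depleted cells (log2 -0.66) and in control cells by less than 1.5-fold (-0.42 ± 0.21). Rnf2 was highest in control cells at 0.13 ± 0.20, and Ring1 had the largest difference, 0.28 ± 0.29.

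Of 10 genes for the turnover of Myc protein, Fbxo32 alone passed 1.5-fold, lower with serum in control cells (5.42% of all genes were). Fbxo32, a ubiquitin ligase subunit known from muscle atrophy, gave 667 and 291 in control cells and 1244 and 1034 in THOC5-depleted cells. Its log2 serum ratios were -1.19 ± 0.23 and -0.27, and the difference was 0.93 ± 0.31. Between the arrays Fbxo32 was 2.28-fold higher without serum and 4.33-fold higher with it. Fbxw7, the main ubiquitin ligase subunit for Myc, had the highest ratio of the 10 in control cells, 0.28 ± 0.21.

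Of 30 textbook Myc target genes, many of them for nucleolar proteins and metabolism, 2 passed 1.5-fold with serum in control cells, Odc1 and Hk2, both higher, and 0 passed in THOC5-depleted cells. Over all genes 6.25% and 3.03% were higher, so these counts are near the background. Odc1, the first enzyme of polyamine synthesis, gave 18226 and 30870 in control cells and 18413 and 22368 in THOC5-depleted cells, with log2 ratios of 0.76 ± 0.22 and 0.28. Tfam had the lowest ratio in control cells, -0.29 ± 0.21. The largest difference was that of Ncl, nucleolin, which gave 32214 and 35061 in control cells and 32643 and 22943 in THOC5-depleted cells. Its difference of -0.63 ± 0.29 was the only 1 of the 30 past 1.5-fold, against 3.77% of all genes in that direction. Between the arrays, Hk2 alone was higher without serum (log2 0.76) and Tert alone lower with it (log2 -0.62) in THOC5-depleted cells, 1 of 30 each against 4.98% and 5.44% of all genes. Tert was dim, at 39.4 and 23.2 in stimulated cells.

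Most target genes differed in the same direction by small amounts. The serum ratio was above 0 for 25 of 30 genes on the control array and for 10 of 30 on the other. Over all genes, 53.0% and 52.7% were below 0 on these arrays. The ratio was smaller in THOC5-depleted cells for 29 of 30, Tfam being the exception. Without dye normalization the ratio was above 0 for 28 and for 15 of the 30, an even split on the THOC5-depleted array, and smaller there for 29. In that setting 49.9% and 47.7% of all genes were below 0. The median difference was -0.24, beside 0.01 over all genes, of which 48.8% were below 0. Among the 3296 genes with every signal above 5000, a limit chosen after seeing the data, the median was 0.00 and 50.8% were below 0, and 19 of the 20 targets there were. Centered on the spike-in probes, the median of all genes moved to -0.24 and that of the targets to -0.49. The targets' signals in unstimulated cells were higher in THOC5-depleted cells for 25 of 30 after scaling (median 0.14), when 49.8% of all genes were lower. Without scaling they were higher for 9 of 30, when 80.9% of all genes were lower and the median of all genes was -0.26. The difference of serum ratios was smaller than the software's error for 21 of the 30 genes, and the genes were measured on the same 2 arrays, so they are not independent. In 6 of the 25 target genes with a promoter entry a window held CACGTG, or in 7 of their 30 windows (23.3%), against 7.15% of all windows. The list holds known Myc targets, so this share is not separate evidence about Myc in these cells, and binding was not measured.

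**Figure D5:**
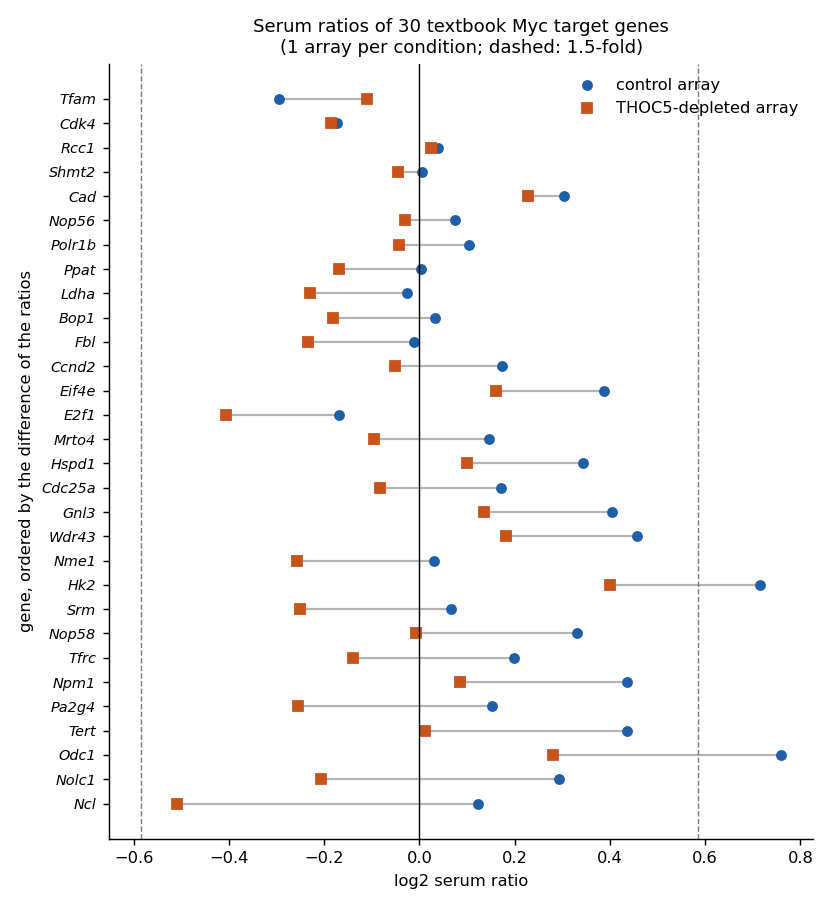
Log2 serum ratio of 30 textbook Myc target genes in control cells (blue circles) and THOC5-depleted cells (orange squares), 1 array each, ordered by the difference, with dashed lines at 1.5-fold. The orange square lies to the left of the blue circle for 29 of 30 genes, and Odc1 and Hk2 in control cells lie beyond the dashed line.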

How the data were processed

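Dual-color scanner output (Agilent Feature Extraction 10.7.3.1, per the submitters' processing notes; probe positions on mm9) was deposited by the authors for both arrays. Per the file headers, the deposited signals are intensities from which background was subtracted and whose dyes were normalized (linear and LOWESS), and the deposited log ratio is log10 of Cy5 over Cy3, with an error. The series table deposited by the authors holds the size of this log10 ratio without sign (0 negative values). Given the sign of the scanner ratio, it served as an alternative, but it holds the same ratios and is not an independent check. Dyes were not exchanged.

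Outlier spots (239 and 234) were left out. The brightest probe stood for a gene. Genes counted where they were well above background in every channel compared and differed by 1.5-fold or more. Signals were compared between arrays after Aquantile normalization in limma 3.58.1 (R 4.3.3). Spots of probes printed at least 5 times had a median SD of 0.028 and 0.031 in log2 ratio. Counting was checked on simulated data.

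All members were named, with Thoc5, the genes of each list with the highest and lowest control ratio and the largest difference, and the 5 genes nearest to Myc among those with signals above 200. Others were named after their values were seen. The members and lists were chosen with earlier results of these data known, and so were the motifs. Alternatives were normexp (offset 50) with loess, no dye normalization, a floor of 50, other filters, thresholds, probe rules and scalings. Centering on 10 spike-in probes and limits on signal were added after seeing the data. Columns not mapped to a sample numbered 0. A result for 1 gene of the lists is not reported here.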

Additional observations from a re-analysis of the deposited data

How the results depend on the processing

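With 1 array per condition, no replicate could be left out. No paired analysis was possible because each condition had 1 array. Over the 8 measured genes and 5 comparisons, 311 alternative values lay within the software's error of the reported value, 14 did not, and a gene past 1.5-fold changed sign in 0 cases. The 311 is not a measure of stability, because many settings could not change a value. For a gene with 1 bright probe, the floor, the filters and the mean over probes return the reported value. The log2 serum ratio of Myc in control cells (1.98) changed only with normexp and loess (1.97) and without dye normalization (2.15). On the THOC5-depleted array, 2 members passed 1.5-fold with serum, but 1 (Myc) with a signal filter of 200 and 1 (Mycn) at a threshold of 2-fold, and 3 (Mxd1 too) after normexp and loess (Mxd1 0.59), with ratios scaled to 1 spread (0.74) and at 1.3-fold. In the difference of serum ratios, where 1 passed, 2 (Myc and Mycn) did at 1.3-fold and 0 at 2-fold, since the reduction for Myc lies at that limit. In unstimulated cells, 2 (Mxd4 and Mnt) in place of 1 passed at 1.3-fold and also without scaling between the arrays. In stimulated cells, 0 in place of 2 passed at 2-fold, and 3 did at 1.3-fold (Mxd1 too) and without scaling (Mxd4 too). The causes were not tested beyond what the settings change.

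The log2 serum ratio of Myc ranged from 1.97 to 2.15 in control cells and from 0.95 to 1.37 in THOC5-depleted cells, its difference from -1.24 (centered on spike-in probes) to -0.61 (scaled to 1 spread). Mycn ranged from -1.83 to -1.33 and from -1.77 to -0.87. Its difference fell to 0.02 with ratios scaled to 1 spread. Mnt between the arrays ranged from 0.69 to 1.02 without and from 0.66 to 0.98 with serum. The mean over both Mxd1 probes turned its values between the arrays to -0.28 and -0.10. Mycn, Mxd3 and Mga were dim (at most 343 units), and Mxi1 gave no ratio.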
